A study of Mus musculus with 2 samples.

Results

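A set of 10 genes of bone morphogenetic protein (BMP) signalling were followed in single cells of atherosclerotic mouse aorta: the ligands Bmp2, Bmp4 and Bmp6, the receptors Bmpr1a, Bmpr2 and Acvrl1, the co-receptor Eng, and the response genes Smad6, Id1 and Id3. They were chosen by name, with earlier results of these data known. Each symbol was found once among the 32285 gene rows of both count matrices, so all 10 members were measured. The data were 2 droplet libraries, 1 per group. Both came from aortas of ApoE-/- mice on the C57BL/6 background kept on a Western diet, a model of atherosclerosis, and cells were enriched with beads against the endothelial surface protein CD31. The WT library carried no other stated change, and the EC-iCD45KO library came from mice with a tamoxifen-inducible, endothelial-specific loss of CD45 (gene Ptprc), the phosphatase that marks blood cells. The labels give neither the age or number of animals behind each library nor the Cre line, and they do not say whether the WT mice received tamoxifen. With 1 library per group there is no test between groups. Genotype, animal and library cannot be told apart, and every interval below is an exact 95% interval that covers counting error only.

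BMP ligands are secreted dimers that bind a pair of type 1 and type 2 receptor kinases. Bmpr1a and Acvrl1 (also called ALK1) are type 1 receptors, Bmpr2 is a type 2 receptor, and endoglin (Eng) presents BMP9 and BMP10 to Acvrl1 on endothelium. The active receptors phosphorylate SMAD1 and SMAD5, which enter the nucleus with SMAD4 and switch on Id1, Id3 and Smad6. Id proteins block basic helix-loop-helix transcription factors, and Smad6 is an inhibitory SMAD that damps the same pathway. In vessels this pathway is known for its part in arterial identity, hereditary telangiectasia, pulmonary hypertension and calcification of plaques.

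The WT library held 39849 barcodes with 92058043 unique molecular identifiers (UMIs, 1 per captured transcript), and the EC-iCD45KO library held 30278 barcodes with 88967918 UMIs. After the filters, 35309 and 25988 cells were grouped into classes by markers that did not include the 10 genes. The endothelial class, called EC-like, held 1427 WT and 1709 EC-iCD45KO cells with median depths of 1940 and 1931 UMIs. All 13 general endothelial markers, which were used to define the class, were detected in it in both libraries. A further 759 WT and 2170 EC-iCD45KO cells carried endothelial markers together with those of another class and were kept apart as mixed. A cluster of 1 WT and 461 EC-iCD45KO cells scored highest for kidney tubule markers and next for EC-like markers. Its leading genes included Aqp2, Hsd11b2 and Calb1, and it received no class. EC-like cells also included an unnamed sub-cluster led by Igfbp5, with 5 WT and 45 EC-iCD45KO cells. The tissue of origin of these cells was not tested. Ptprc itself stood at 124 CPM (counts scaled to a total of 1e+06 UMIs) in WT and 32.9 CPM in EC-iCD45KO EC-like cells, but it was also lower in classes where the label does not place the deletion: macrophage-like cells, at 467 and 283 CPM, SMC-like cells, at 168 and 81.8 CPM, fibroblast-like cells, at 338 and 142 CPM, and chondrocyte-like cells, at 166 and 58.0 CPM. In the Thsd7b capillary sub-cluster of EC-like cells it was at 42.1 and 49.7 CPM. It was higher in B-like cells, at 742 and 1267 CPM, and neutrophil-like cells, at 1080 and 2574 CPM. The summed level of 8 B cell markers in EC-like cells was 537 CPM in WT and 35.3 CPM in EC-iCD45KO, and its part in the differences below was not tested. B-like cells themselves held few transcripts of most of the genes, with Bmp4 at 0.511 CPM or less, Bmp6 at 1.68 CPM or less and Eng at 2.48 CPM or less. The libraries shared 340 cell barcodes, and 12 WT and 31 EC-iCD45KO EC-like cells carried one of them.

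Most of these genes were endothelial genes in this tissue. Of the 10, 7 (Bmp4, Bmp6, Bmpr2, Acvrl1, Eng, Smad6 and Id1) had their highest level among the 12 named classes in an endothelial class in both libraries, where 18.6% of all 9984 genes that reached 20 CPM in their highest class did so. Bmp2, Bmpr1a and Id3 did not. Because the genes were chosen with earlier results of these data known, this count is a description only. For Id3 the EC-like class came first in WT and second, after Schwann-like cells, in EC-iCD45KO.

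**Figure D1:**
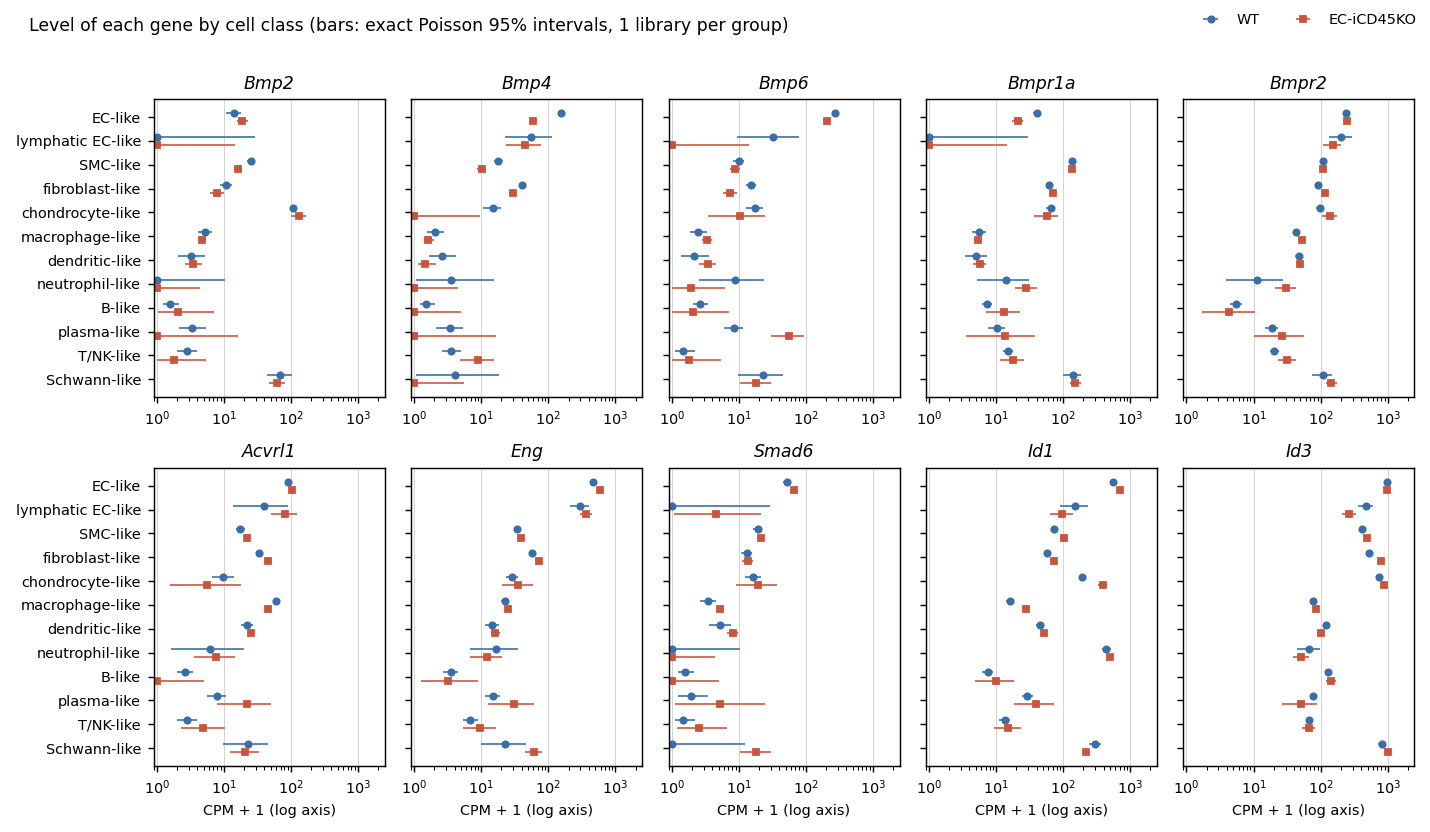
Level of each of the 10 genes (x axis, CPM + 1, log axis) in the 12 named cell classes (y axis), with circles for the WT library, squares for the EC-iCD45KO library and bars for exact Poisson 95% intervals. Eng, Bmp6 and Acvrl1 peak in EC-like cells, Bmpr1a is highest in SMC-like and Schwann-like cells, and Id3 is present in every class.

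Among the ligands, Bmp2 was low in EC-like cells, at 13.0 CPM in WT and 17.8 CPM in EC-iCD45KO. It was highest in chondrocyte-like cells, at 106 CPM in WT and 130 CPM in EC-iCD45KO, which is the class of cartilage-like cells. Schwann-like cells followed with 68.5 and 61.5 CPM. This Schwann-like cluster also had pericyte genes among its leading genes, so its name is only approximate. Smooth muscle-like (SMC-like) cells had 24.0 CPM in WT and 15.3 CPM in EC-iCD45KO, a log2 ratio of -0.65 (interval -0.94 to -0.37).

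Bmp4, a ligand known to be made by endothelium under disturbed flow, was an EC-like gene above all. Its level was 154 CPM in WT and 59.1 CPM in EC-iCD45KO EC-like cells. Lymphatic EC-like cells came second, at 54.1 and 43.8 CPM. Fibroblast-like cells had 40.1 and 28.7 CPM, and SMC-like cells 16.9 and 9.17 CPM. In these 4 classes the EC-iCD45KO library was the lower one. Bmp6, a ligand best known for its control of hepcidin and iron, stood at 276 and 203 CPM in EC-like cells. The second class in WT was lymphatic EC-like, at 30.9 CPM from 4 UMIs, and the second in EC-iCD45KO was plasma-like, at 54.5 CPM from 13 UMIs.

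Of the receptors, Bmpr1a had its main level outside the endothelium. It stood at 135 CPM in SMC-like cells of both libraries and at 137 and 151 CPM in Schwann-like cells, against 39.8 and 19.9 CPM in EC-like cells. Bmpr2 was broad, with 238 and 246 CPM in EC-like cells, 106 CPM in SMC-like cells of both libraries and 91.5 and 115 CPM in fibroblast-like cells. Its lowest class was B-like cells, at 4.52 and 3.30 CPM. Acvrl1 was at 89.7 and 101.5 CPM in EC-like cells. Macrophage-like cells also held Acvrl1, at 58.4 CPM in WT and 44.5 CPM in EC-iCD45KO.

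Eng followed the endothelium closely, with 458 and 578 CPM in EC-like and 294 and 361 CPM in lymphatic EC-like cells. The next class was fibroblast-like, at 56.6 and 72.7 CPM. Smad6 was at 51.3 and 66.0 CPM in EC-like cells and at 18.2 and 20.2 CPM in SMC-like cells.

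Id1 was highest in EC-like cells, at 547 CPM in WT and 698 CPM in EC-iCD45KO. The second class was not a vascular one: neutrophil-like cells held 439 and 500 CPM. Chondrocyte-like cells held 193 CPM in WT and 390 CPM in EC-iCD45KO, a log2 ratio of 1.01 (interval 0.76 to 1.27), though the EC-iCD45KO value rests on 96 cells. Id3 was present in every class, at 960 and 984 CPM in EC-like cells. Its lowest level was 67.1 CPM in T/NK-like cells in WT and 49.8 CPM in neutrophil-like cells in EC-iCD45KO. Id1 and Id3 thus parted in B-like cells, where Id3 was at 127 and 143 CPM and Id1 at 6.49 and 8.79 CPM.

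Shares of cells with at least 1 UMI were compared after thinning each cell to 1000 UMIs, which left out 234 WT and 505 EC-iCD45KO EC-like cells of lower depth. At that depth an Id3 UMI was found in 52.5% of WT and 56.1% of EC-iCD45KO EC-like cells (69.2% and 68.2% without thinning), an Eng UMI in 34.5% and 39.0% (54.3% and 55.4%) and a Bmp6 UMI in 21.8% and 17.9% (32.2% and 27.7%). Id1 was found in 36.0% of WT cells (interval 33.3% to 38.8%) and 47.2% of EC-iCD45KO cells (44.3% to 50.04%), and without thinning in 54.9% and 57.8%. Bmp4 was found in 9.72% of WT (interval 8.10% to 11.5%) and 5.40% of EC-iCD45KO cells (4.19% to 6.83%), and without thinning in 16.3% and 10.1%. The shares of Bmpr2 were 20.8% and 21.8%, of Acvrl1 9.97% and 10.9%, of Smad6 5.03% and 7.23%, of Bmpr1a 3.10% and 1.83% and of Bmp2 1.17% and 0.831%.

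Free RNA can put a UMI into a cell that does not make it, so B-like cells, with median depths of 1999 and 2559 UMIs, served as the class that should lack most of these genes. After thinning, their WT shares for the genes other than Id3 lay between 0.0183% for Bmp4 and Smad6 and 0.949% for Id1. In EC-iCD45KO no B-like cell of 309 held Bmp2, Bmp4, Bmp6, Bmpr2, Acvrl1, Eng or Smad6, which allows a share of up to 0.971%. The EC-like share of Bmp2 in EC-iCD45KO, 0.831%, lies under that limit, so at this depth the share alone does not separate it from background, while its CPM was 17.8 in EC-like cells from 103 UMIs and 1.10 in B-like cells from 1 UMI. The share of Bmpr1a in EC-iCD45KO EC-like cells, 1.83% (interval 1.15% to 2.75%), lies inside the interval of B-like cells, which reaches 2.81%. For Bmpr2 the lowest class was also B-like, at 0.456% in WT. For Id3 it was neutrophil-like, at 5.42% and 2.74%.

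EC-like cells were divided into arterial (422 WT and 334 EC-iCD45KO cells), capillary (446 and 531) and venous (266 and 253) subtypes, each made of 2 sub-clusters that are called here by their leading gene. Many of the genes differed between vessel types, and those that did so in both libraries are counted here. Compared with venous cells, arterial cells held at least 1.5 times the level of Bmp4, Bmp6, Bmpr1a, Acvrl1 and Smad6 in both libraries, 5 of the 9 members tested, where 7.75% of all genes did. Eng was the 1 member higher in venous than in arterial cells, with a background of 8.78%. Against capillary cells, arterial cells held more Bmp4, Bmpr1a and Bmpr2 (3 of 9, background 11.6%) and less Eng and Id1 (2 of 9, background 14.7%). Capillary cells exceeded venous cells in Bmp6, Acvrl1, Smad6, Id1 and Id3 (5 of 7, background 10.1%), and venous cells exceeded capillary cells in 0 of 7 (background 8.92%).

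**Figure D2:**
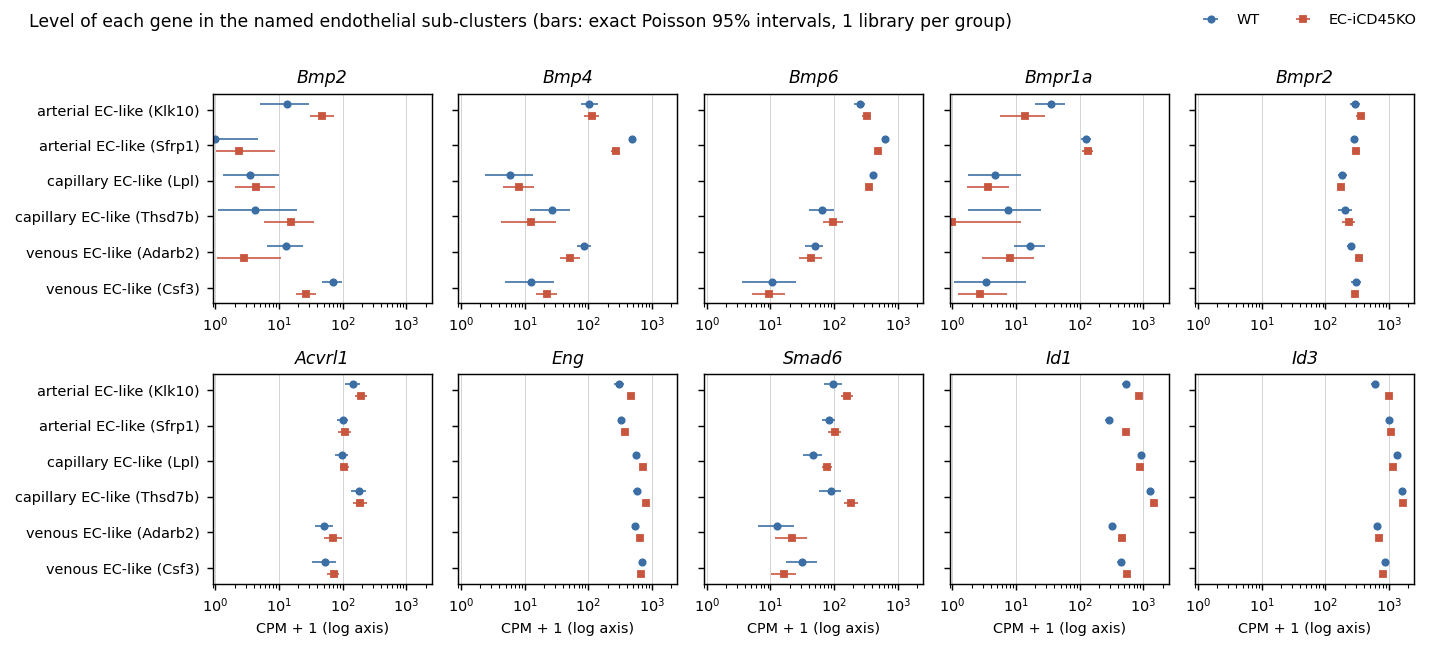
Level of each of the 10 genes (x axis, CPM + 1, log axis) in the 6 named endothelial sub-clusters (y axis), with circles for WT, squares for EC-iCD45KO and bars for exact Poisson 95% intervals. Bmp4 and Bmpr1a stand out in the arterial Sfrp1 sub-cluster, Bmp6 in arterial and Lpl capillary cells, and Id1 in capillary cells.

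The sharpest contrasts belonged to Bmp4 and Bmpr1a. Bmp4 was at 375 CPM in WT arterial cells against 10.7 CPM in capillary and 58.9 CPM in venous cells. In EC-iCD45KO these levels were 206, 8.03 and 31.1 CPM. Both libraries therefore had the same order, arterial, venous, capillary. Bmpr1a was at 99.6 CPM in WT and 84.9 CPM in EC-iCD45KO arterial cells, and at 10.9 CPM or less in capillary and in venous cells. Within the arterial subtype, the sub-cluster led by Sfrp1 (280 WT and 210 EC-iCD45KO cells) held most of both. Its Bmpr1a stood at 126 and 131 CPM, near the level of SMC-like cells, while the summed level of 9 SMC markers in it was 7.05% and 7.096% of that in SMC-like cells.

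Bmp6 had a different map. It was at 516 and 421 CPM in arterial and at 309 and 311 CPM in capillary cells, but at 34.5 and 19.6 CPM in venous cells. The 2 capillary sub-clusters were unlike each other: the one led by Lpl held 402 and 359 CPM, and the one led by Thsd7b 64.7 and 96.6 CPM. Bmp2, by contrast, was a venous ligand in WT. The venous sub-cluster led by Csf3, which also had the adhesion gene Sele and the chemokine Cxcl1 among its leading genes, held 68.1 CPM in WT and 25.6 CPM in EC-iCD45KO, from 29 and 30 UMIs. In EC-iCD45KO the arterial sub-cluster led by Klk10 held the most Bmp2 of the 6 named sub-clusters, at 46.7 CPM from 22 UMIs, against 12.3 CPM from 5 UMIs in WT. An unnamed sub-cluster led by 9530059O14Rik held more, at 92.5 CPM in 36 EC-iCD45KO cells, against 27.0 CPM from 3 UMIs in WT. It gave 35 of the 103 EC-like Bmp2 UMIs in EC-iCD45KO. Over all arterial cells the Bmp2 log2 ratio of EC-iCD45KO over WT was 2.43, from 5 WT and 23 EC-iCD45KO UMIs. The mean level was 11.3 CPM, under the minimum of 20 CPM used for calls. As a mean of single-cell CPM, in which every cell counts alike, the ratio was 0.11.

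Among receptors the type 2 receptor Bmpr2 differed least between vessel types, at 285 and 323 CPM in arterial, 188 and 183 CPM in capillary and 269 and 306 CPM in venous cells. Arterial and venous levels did not differ beyond counting error in either library, with log2 ratios of 0.08 (WT interval -0.13 to 0.30, EC-iCD45KO interval -0.11 to 0.27). Acvrl1 was at 112 and 141 CPM in arterial and 118 and 120 CPM in capillary cells but at 50.5 and 70.7 CPM in venous cells. Eng, its partner, had the opposite tilt in arteries, at 318 and 404 CPM in arterial cells against 568 and 726 CPM in capillary and 590 and 671 CPM in venous cells.

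Id1 and Id3 were highest in capillary cells. Id1 stood there at 1021 and 1005 CPM, and Id3 at 1391 and 1253 CPM. The Thsd7b sub-cluster had the highest level of both, with Id1 at 1285 and 1484 CPM. Smad6 was at 85.4 and 124 CPM in arterial, 56.9 and 95.9 CPM in capillary and 18.5 and 17.3 CPM in venous cells. The 3 response genes thus did not share 1 order across vessel types. Among thinned EC-like cells with an Id1 UMI, 61.6% of WT and 65.5% of EC-iCD45KO cells also held Id3, against 47.3% and 47.6% of cells without Id1. For Smad6 the corresponding shares were 5.58% and 7.57% with Id1, and 4.72% and 6.92% without, whose intervals overlap.

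The next question was which of the genes differed between the EC-iCD45KO and WT libraries. In EC-like cells 9 of the 10 genes reached a mean of 20 CPM. None of the 9 was higher by at least 1.5-fold in EC-iCD45KO, where 2.31% of all 6877 genes tested were. Bmp4 and Bmpr1a were lower by at least 1.5-fold, 2 of 9, where 5.21% of all genes were. The median log2 ratio of the 9 genes was 0.04, and that of all genes was -0.00223.

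**Figure D3:**
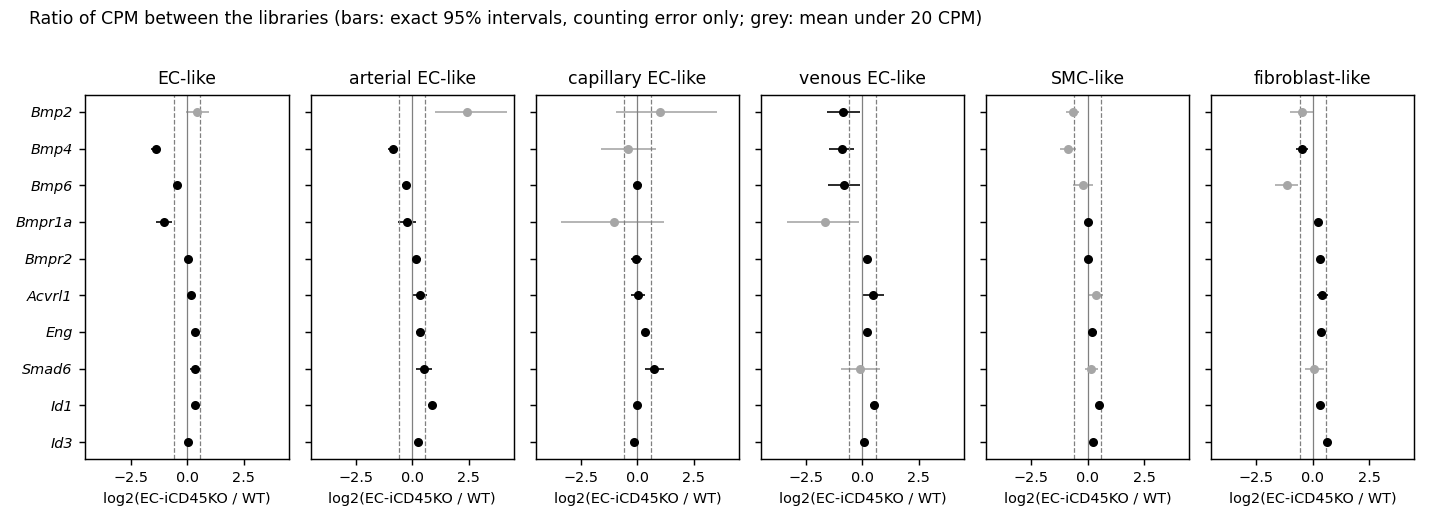
Log2 ratio of EC-iCD45KO over WT (x axis) for the 10 genes (y axis) in EC-like cells, their 3 subtypes, SMC-like and fibroblast-like cells, with bars for exact 95% intervals of counting error, dashed lines at 1.5-fold and grey points for a mean under 20 CPM. Bmp4 lies left of 0 in every panel, past the dashed line in EC-like, arterial and venous cells and, as a grey point, in SMC-like cells, and Id1 lies past it on the right in arterial cells.

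The log2 ratio of Bmp4 in EC-like cells was -1.38 (interval -1.58 to -1.19). Arterial cells had a ratio of -0.87 (-1.09 to -0.65) and venous cells one of -0.92 (-1.46 to -0.39). The venous sub-clusters differed from each other: Bmp4 was at 85.2 and 51.1 CPM in Adarb2 cells, a ratio of -0.74 (-1.42 to -0.08), and at 11.7 and 21.3 CPM from 5 and 25 UMIs in Csf3 cells, a ratio of 0.86 (-0.55 to 2.60). Inside the Sfrp1 sub-cluster, where Bmp4 is highest, the level was 486 CPM in WT and 266 CPM in EC-iCD45KO, a ratio of -0.87 (-1.12 to -0.63). In the Klk10 arterial sub-cluster it was 103 and 112 CPM, so the lower level was not shared by both arterial sub-clusters. Under the looser cell filter the Sfrp1 sub-cluster scored 1.73 for venous and 1.696 for arterial markers and received no subtype name, whereas arterial came first in the other clusterings, and the arterial class without it had a Bmp4 ratio of 0.14. When the sub-clusters were weighted equally, the EC-like ratio of Bmp4 was -0.66, so the numbers of cells per sub-cluster enter the pooled value. All 3 fibroblast-like clusters were lower too, from 49.1 to 22.9 CPM in the one led by C7, from 78.8 to 46.9 CPM in the one led by Ren1 and from 15.5 to 7.59 CPM in the one led by Prg4.

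Bmpr1a had a log2 ratio of -0.999 (interval -1.36 to -0.65) over all EC-like cells. Within arterial cells the ratio was -0.23 (-0.61 to 0.15), and in the Sfrp1 sub-cluster it was 0.06 (-0.34 to 0.45). Over the alternatives the arterial ratio ran from -1.74 to -0.08. The Klk10 sub-cluster had 34.3 and 12.7 CPM. With equal weights the EC-like value was -0.51 and no longer past 1.5-fold. SMC-like cells had a level of 135 CPM in both libraries, with an interval of the ratio from -0.11 to 0.10. The Bmpr1a difference in the pooled class was therefore not seen within the sub-cluster that held most of its UMIs. Bmp6 was lower by 0.44 on the log2 scale in EC-like cells (interval of the ratio -0.56 to -0.32), and its ratio was -0.29 in arterial and 0.01 in capillary cells. The EC-like ratio of Bmp6 was past 1.5-fold under the stricter filter (-0.70), the looser filter (-0.63) and Leiden resolution 2 (-0.62), which made 3 of the genes lower, and it was -0.09 with equal weights.

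The low-depth EC-like sub-cluster that stayed unnamed, with haemoglobin genes as its leading genes, held 255 WT and 510 EC-iCD45KO cells with median depths of 1060 and 732 UMIs. It scored 1.49 for capillary and 1.39 for venous markers, too close for a name. In this sub-cluster Bmp4 was at 100.5 CPM in WT and 20.9 CPM in EC-iCD45KO, from 32 and 10 UMIs. Without the unnamed sub-clusters the EC-like ratio of Bmp4 was -1.32 and that of Bmpr1a -0.87.

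Id1 in arterial cells differed in the other direction. It stood at 355 CPM in WT and 656 CPM in EC-iCD45KO, a log2 ratio of 0.89 (interval 0.72 to 1.05). Both arterial sub-clusters had it, at 284 and 538 CPM in the Sfrp1 and 530 and 838 CPM in the Klk10 sub-cluster. In the Klk10 sub-cluster Id3, at 591 and 1004 CPM (log2 ratio 0.76, 0.54 to 0.99), Smad6, at 95.7 and 159 CPM, and Eng, at 299 and 461 CPM, were past 1.5-fold as well. The share of all genes past 1.5-fold was not computed for this sub-cluster, so no excess is read from these values. After thinning, 26.1% of WT (21.8% to 30.8%) and 42.1% of EC-iCD45KO (36.0% to 48.5%) arterial cells held an Id1 UMI, and without thinning 47.6% and 60.8%. Capillary cells, where Id1 is highest, had a ratio of -0.02 (-0.13 to 0.08). In arterial cells Id1 was 1 of 9 genes higher by 1.5-fold (background 6.06%) and Bmp4 1 of 9 lower (background 7.15%). Under the looser cell filter, which took the Sfrp1 sub-cluster out of the arterial class, the arterial Id1 ratio was 0.54 and no longer past 1.5-fold. The 2 opposite differences thus met in the same sub-cluster, in which the ligand gene was lower and the response gene higher in the EC-iCD45KO library.

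**Figure D4:**
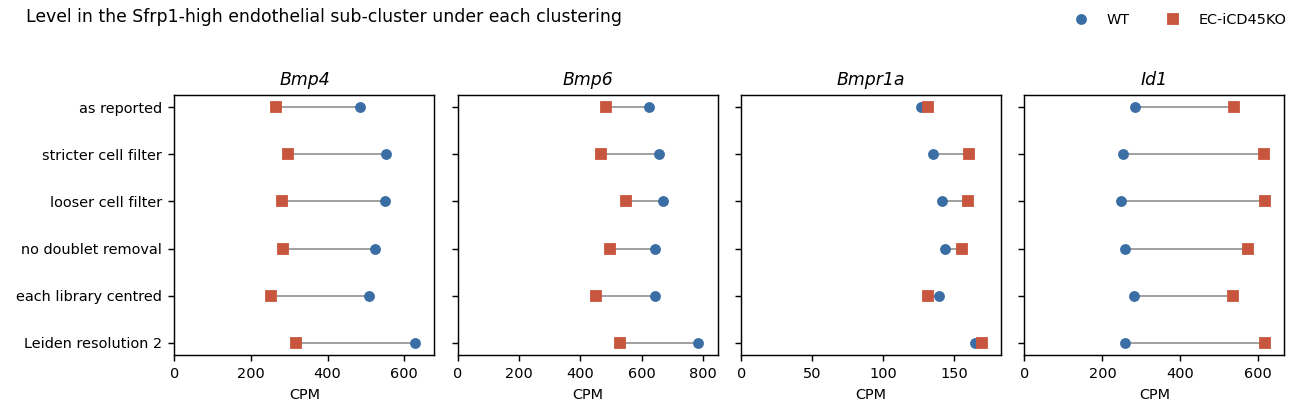
Level in CPM (x axis, from 0) of Bmp4, Bmp6, Bmpr1a and Id1 in the endothelial sub-cluster with the highest Sfrp1, as reported and under 5 other clusterings (y axis), with circles for WT and squares for EC-iCD45KO. Bmp4 is lower and Id1 higher in EC-iCD45KO in each of the 6 clusterings, and the 2 libraries differ little in Bmpr1a.

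That pair of differences was recomputed with the sub-cluster of highest Sfrp1 taken anew from each clustering. Over the alternatives the log2 ratio of Bmp4 ranged from -1.01 to -0.70 and that of Id1 from 0.91 to 1.32. Sfrp1 itself, a secreted inhibitor of Wnt signalling, was at 1897 CPM in WT and 664 CPM in EC-iCD45KO cells of this sub-cluster, so its leading gene also differed between the libraries. Smoc1, a secreted BMP antagonist, was among its leading genes as well. The summed B cell markers in it were at 562 and 57.5 CPM, the summed fibroblast markers at 1327 and 2028 CPM and the summed SMC markers at 1012 and 1677 CPM, mostly Acta2 at 585 and 1075 CPM and Tagln at 373 and 503 CPM. The part of these markers was not tested. Its summed chondrocyte markers, at 2044 and 1907 CPM, were nearly all Cytl1, at 1994 and 1892 CPM, while Col2a1 was at 9.02 and 1.37 CPM and Cnmd at 0 in both libraries.

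In capillary cells Smad6 was the 1 of 7 genes higher by 1.5-fold (background 3.89%), at 56.9 CPM in WT and 95.9 CPM in EC-iCD45KO, a log2 ratio of 0.75 (interval 0.33 to 1.19). It was higher in both capillary sub-clusters, at 45.3 and 76.0 CPM in the Lpl and 87.4 and 184 CPM in the Thsd7b sub-cluster. No member was lower there (background 4.65%). In venous cells 3 of 8 genes, all of them ligands, were lower by 1.5-fold, where 10.5% of all genes were, and 0 of 8 were higher (background 6.31%). These were Bmp2 at 32.0 and 17.8 CPM, Bmp4 at 58.9 and 31.1 CPM and Bmp6 at 34.5 and 19.6 CPM, each from 31 to 70 UMIs. The venous class sat in different sub-clusters in the 2 libraries: the Csf3 sub-cluster gave 425547 of 1188847 venous UMIs in WT and 1171541 of 1738693 in EC-iCD45KO. Within the sub-clusters the Bmp6 ratio was -0.20 (-1.001 to 0.58) in Adarb2 and -0.14 (-1.93 to 1.99) in Csf3 cells, so the lower Bmp6 of the class was not seen inside either. The Bmp2 ratio was -1.41 (-2.20 to -0.62) in Csf3 cells, and Adarb2 cells held Bmp2 at 11.8 and 1.76 CPM from 9 and 1 UMIs. For the whole venous class the Bmp4 ratio was -0.53 under the stricter filter, -0.30 under the looser filter and -0.44 without doublet removal, none of them past 1.5-fold. The venous Bmp6 ratio of the whole class, -0.82, was 0.93 under the looser cell filter and 0.25 as a mean of single-cell CPM. The share of thinned venous cells with a Bmp4 UMI was 4.63% and 4.84%, so it did not follow the CPM, and no order is read from it.

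Outside the endothelium fewer of the genes were measurable. In SMC-like cells 5 reached 20 CPM, with 0 higher (background 4.14%) and 0 lower (background 5.6%). Of its 2 clusters, the one led by Vcam1 had Id1 at 61.2 and 97.9 CPM, a log2 ratio of 0.68 (0.50 to 0.86), and Bmp2 at 29.4 and 16.1 CPM, a ratio of -0.87 (-1.20 to -0.54), both past 1.5-fold. The cluster led by Cnn1 had Id1 at 93.2 and 108 CPM and Bmp2 at 12.4 and 13.8 CPM, a ratio of 0.15 (-0.46 to 0.79). For single clusters, here and below, the share of all genes past 1.5-fold was not computed. In fibroblast-like cells 1 of 7 was higher (background 6.1%) and 0 lower (background 9.55%): Id3 stood at 524 CPM in WT and 799 CPM in EC-iCD45KO, a log2 ratio of 0.61 (interval 0.55 to 0.67). Within the 3 fibroblast-like clusters the Id3 ratios were smaller, 0.51, 0.29 and 0.25, and none of them reached 1.5-fold. In the cluster led by C7, Id1 was past 1.5-fold, at 50.2 and 86.0 CPM, a log2 ratio of 0.78 (0.48 to 1.078). In macrophage-like cells 1 of 5 was higher (background 2.39%) and 0 lower (background 1.93%): Id1 was at 15.2 and 26.6 CPM, a log2 ratio of 0.80 (0.57 to 1.04). All 13 general endothelial markers were also higher in these macrophage-like cells, with Cdh5 at 2.75 and 9.02 CPM, Flt1 at 5.51 and 12.0 CPM and Pecam1 at 47.9 and 65.0 CPM, and their part in the Id1 difference was not tested.

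The promoter regions of 7 of the genes were in the RefSeq table for build GRCm38.p6; Bmp2, Acvrl1 and Id1 were not. The 250 bases before the RefSeq start were searched on both strands for GGCGCC (its own reverse complement) and GGAGCC, elements that bind SMAD1 and SMAD5, and for GTCT, which binds SMAD4. Of 27025 promoters of that length, 9.54% hold GGCGCC, 25.7% GGAGCC and 83.0% GTCT, so GTCT says little. The regions of Smad6, the inhibitory response gene, at chr9:64022060-64022309 on the minus strand, and of Bmp4, the ligand that was lower in EC-like cells, at chr14:46390670-46390919 on the minus strand, are shown 5′ to 3′ with these elements in capitals.
Smad6: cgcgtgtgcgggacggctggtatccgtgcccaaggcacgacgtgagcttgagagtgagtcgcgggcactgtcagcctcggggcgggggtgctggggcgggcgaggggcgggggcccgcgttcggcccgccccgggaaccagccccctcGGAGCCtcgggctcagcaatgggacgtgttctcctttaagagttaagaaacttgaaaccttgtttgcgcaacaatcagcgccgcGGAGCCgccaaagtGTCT
Bmp4: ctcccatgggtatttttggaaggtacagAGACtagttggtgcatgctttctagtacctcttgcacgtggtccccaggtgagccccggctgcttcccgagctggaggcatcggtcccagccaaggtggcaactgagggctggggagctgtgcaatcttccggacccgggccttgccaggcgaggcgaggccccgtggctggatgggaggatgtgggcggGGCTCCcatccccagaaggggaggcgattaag
The Smad6 region holds GGAGCC at 2 places, whose first bases lie 102 and 18 bases before the start, and 1 GTCT. The Bmp4 region holds 1 GGAGCC, on the other strand (GGCTCC), and 1 GTCT. Id3 has 1 GGAGCC match, Bmpr1a and Bmpr2 have 1 GGCGCC each, and Bmp6 and Eng have neither 6-base element. A match describes letters only, and these data hold no measurement of SMAD binding.

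In build GRCm38 with GENCODE M21 annotation, the gene of Bmp4 spans chr14:46383520-46390669 and that of Id1 chr2:152736251-152737410. Smad6 spans chr9:63953076-64022059, Bmpr1a chr14:34410734-34503341 and Bmp6 chr13:38345107-38500302. For Bmp6, Bmpr1a, Bmpr2 and Id3 the RefSeq window searched above lies inside the GENCODE span, since the annotations place the start differently. The Bmp6 window, for example, is chr13:38345466-38345715. Bmp4, Bmp6, Bmpr1a and Acvrl1 each overlap annotated genes on the other strand, among them Txndc5 for Bmp6, as does Eng with Fpgs, and Eng also overlaps genes on its own strand. Bmpr2 overlaps Gm38125 on its own strand. Bmp2, Smad6, Id1 and Id3 overlap no annotated gene. The sources used here do not say whether intronic UMIs were counted.

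Of 52 other genes of the pathway found in the files, 18 reached 20 CPM in EC-like cells. Nbl1 and Hey1 were higher by 1.5-fold, Smoc1 was lower, and 15 lay between, where 2.31% of all genes were higher and 5.21% lower. Hey1, a transcription factor induced by BMP9 and Notch, was at 32.6 CPM in WT and 60.6 CPM in EC-iCD45KO, a log2 ratio of 0.89 (interval 0.60 to 1.19). Nbl1, a secreted BMP antagonist, was at 15.8 and 28.8 CPM, and Smoc1 was at 93.3 and 40.4 CPM. Smoc1 was mainly a gene of the Sfrp1 sub-cluster, where it was at 358 and 272 CPM, a log2 ratio of -0.39 (-0.65 to -0.14), and that sub-cluster gave 997880 of 4167835 EC-like UMIs in WT and 730329 of 5772448 in EC-iCD45KO. In arterial cells Nbl1, Hey1 and Tmem100, a target of Acvrl1 signalling, were higher (3 of 19, where 6.06% of all genes were) and none was lower. Tmem100 lay mostly in the Klk10 sub-cluster, at 66.2 and 99.7 CPM, a log2 ratio of 0.59 (-0.12 to 1.33), and that sub-cluster gave 407687 of 1405567 arterial UMIs in WT and 471214 of 1201543 in EC-iCD45KO. In capillary cells Smad5, a receptor-activated SMAD, and Smad7, the other inhibitory SMAD, were higher (2 of 17, where 3.89% of all genes were), at 23.1 and 38.0 CPM and at 84.4 and 132 CPM. In venous cells Hey1 was higher, and Mgp and Id2 were lower (1 and 2 of 14, where 6.31% and 10.5% of all genes were). Mgp, the matrix protein that binds BMPs and limits calcification, was at 1836 CPM in WT and 627 CPM in EC-iCD45KO venous cells. It was lower in Adarb2 cells, at 2772 and 1345 CPM, and higher in Csf3 cells, at 157 and 279 CPM.

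None of the other 10 ligand genes of the list reached 20 CPM in EC-like cells, so of the ligand genes examined Bmp4 and Bmp6 alone passed that minimum there. Secreted antagonists were measured outside the endothelium too. In SMC-like cells Grem1 was at 76.4 and 27.9 CPM, Smoc2 at 51.4 and 33.0 CPM and Sost at 88.2 and 208 CPM. In fibroblast-like cells Bmper was at 75.9 and 172 CPM, and Nbl1 at 222 and 363 CPM. Early response genes, which tissue digestion can switch on, were measured in EC-like cells as well: 1 of 10, Hspa1b, was higher by 1.5-fold, where 2.31% of all genes were, at 58.5 and 96.7 CPM, and Fos was at 734 and 686 CPM. In arterial cells, where Id1 differed, again Hspa1b alone of the 10 was higher by 1.5-fold, where 6.06% of all genes were, but 8 of the 10 had a ratio above 0, with a median log2 ratio of 0.29, against -0.32 in capillary cells. Their part in the Id1 difference was not tested.

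The genes whose levels ran most like each member over 17 classes and endothelial sub-clusters in both libraries (34 points, Pearson r of log2(CPM + 1)) are given as a description, since the points share libraries and depth. For Bmp4 these were Tmem158 (r = 0.89) and Vwf (0.84), and for Bmp6 Epb41l4a (0.86). For Bmpr1a they were Sod3 (0.88) and Pcdh9 (0.88), for Bmpr2 Arhgap23 (0.96), for Acvrl1 Ctbp2 (0.93), for Eng Cracr2b (0.96) and Ecscr (0.96), and for Smad6 Mecom (0.91). For Id1 the first was Schip1 (0.88), for Id3 Gna11 (0.95), and for Bmp2 Id4 (0.82). Between members, Bmpr2 and Eng were most alike (r = 0.89), followed by Acvrl1 and Eng (0.88), and Bmpr1a and Eng least (-0.27).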

How the data were processed

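Gene counts per cell barcode came as 2 filtered matrices, 1 per group. Per the file headers and the submitters' processing notes, the authors made these UMI counts with Cell Ranger 7.1.0, and the notes name the build mm10. The deposited counts were used as they are. Cells passed with 300 or more genes detected and no more than 10% of UMIs from mitochondrial genes (39503 WT and 28960 EC-iCD45KO). Scrublet's own threshold marked 8 of 39716 WT and 0 of 29991 EC-iCD45KO cells and had not worked, so the 10% of each library with the highest scores were removed.

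Cells were clustered with scanpy 1.11.5 (2000 variable genes, 30 components, Leiden resolution 1), leaving out the 10 genes, the other pathway genes and Ptprc. Clusters were named by markers, and endothelial cells were clustered again. The naming thresholds, and the rule that set mixed endothelial clusters apart, were chosen once the data had been seen, and differences between groups may depend on the rebuilt names. A cluster was named only with a marker score of at least 1, at least 3 markers detected and at least 50 cells. Its score also had to lead the next class by at least 0.75, or by 0.25 among endothelial subtypes. Clusters stayed unnamed as well where another class had more markers among the leading genes. The same held for clusters of much lower depth than their sample with no marker among the leading genes. The 10 genes and the lists were chosen with earlier results of these data known.

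UMIs were summed per class and library and scaled to a total of 1e+06 (CPM). A gene was counted as different past 1.5-fold with a mean of at least 20 CPM. Intervals are exact Poisson (levels), Clopper-Pearson (shares) and conditional binomial (ratios) at 95%, and were tested on simulated data. The text names all 10 genes, genes of the pathway, early response and marker lists, and up to 3 most similar genes for each; 1 gene of the pathway list is not reported here. TMM factors came from edgeR 4.0.16. Alternatives were other cell filters, no doublet removal, centring, Leiden resolution 2, TMM, CPM without 4 abundant gene groups, means of single-cell CPM, equal sub-cluster weights, other minimums and other thinning, and, chosen after seeing the data, mixed cells kept, unnamed sub-clusters left out, shared barcodes left out and the subtype ratios.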

Additional observations from a re-analysis of the deposited data

Results flagged for a closer look

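Bmp6 differed in opposite directions in 2 classes. In plasma-like cells the log2 ratio of EC-iCD45KO over WT was 2.88 (interval 1.83 to 3.86), from 7.38 CPM with 31 UMIs to 54.5 CPM with 13 UMIs in 83 cells, while in venous EC-like cells it was -0.82 (-1.52 to -0.13). Inside the venous sub-clusters it was -0.20 (-1.001 to 0.58) in Adarb2 and -0.14 (-1.93 to 1.99) in Csf3 cells, and the Csf3 sub-cluster held 63 of 266 venous cells in WT and 106 of 253 in EC-iCD45KO. In the same plasma-like cells the endothelial marker Pecam1 was at 114 and 62.9 CPM and Cdh5 at 14.3 and 25.2 CPM. Bmp6 overlaps Txndc5, a gene known for high levels in plasma cells, on the other strand. The parts of that overlap and of stray endothelial RNA were not tested, and neither was the difference between the 2 classes.

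Id3 was lower in lymphatic EC-like cells, with a log2 ratio of -0.82 (interval -1.34 to -0.31) from 472 to 266 CPM, and higher in fibroblast-like cells, with 0.61 (0.55 to 0.67). The lymphatic class held 43 WT and 75 EC-iCD45KO cells. The difference between the 2 classes was not tested.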

How the results depend on the processing

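With equal weights for the EC-like sub-clusters, 1 member was higher and 1 lower by 1.5-fold, and the median log2 ratio was 0.22 in place of 0.04; over all alternatives the median ran from -0.02 to 0.22. The other 45 alternative values of the counts and the median stayed within 1.5 times the count or within counting error. The number of genes highest in an endothelial class was 7 or 8. Of 120 alternative EC-like ratios of single genes, 94 stayed inside the counting interval and 26 left it. The number of lower genes was 3 under the stricter filter, the looser filter and Leiden resolution 2, with Bmp6 added. Of the alternative ratios in arterial, capillary, venous and Sfrp1-high cells, 300 stayed inside the counting interval, 47 left it and 3 reversed. A reversal was counted only where the reported ratio was past 1.5-fold with a mean of at least 20 CPM. Other ratios changed sign without being counted so. The arterial Bmp6 ratio, reported as -0.29, reached 0.14 over the alternatives, and the arterial Acvrl1 ratio, 0.33, reached -0.05. Under the looser cell filter the arterial ratio of Bmp4 reversed to 0.14 and the venous ratio of Bmp6 to 0.93, and with means of single-cell CPM the venous Bmp6 ratio reversed to 0.25. The venous values rest on few UMIs, and their cause was not tested. Shares of cells depended on depth: 39 of 40 alternative values at 2000 UMIs or without thinning lay outside the interval at 1000 UMIs.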

Other observations

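Neutrophil-like cells stood out among blood cells for Id1, at 439 CPM in WT and 500 CPM in EC-iCD45KO, while the same cells held Id3 at 67.2 and 49.8 CPM and no UMI of Smad6 in either library. In the 9917 WT and 1090 EC-iCD45KO cells that were given no class, Id1 was at 53.8 and 140 CPM and Eng at 38.6 and 146 CPM. These cells were of different kinds in the libraries. Clusters nearest to erythroid and chondrocyte markers held 6578 and 2406 of them in WT, and 464 and 3 in EC-iCD45KO. The cluster with kidney tubule and endothelial markers held 461 in EC-iCD45KO and 1 in WT. The values are therefore no comparison of like cells. In the mixed endothelial cells, which the endothelial comparisons leave out, Bmp4 was at 8.63 CPM in WT and 25.2 CPM in EC-iCD45KO, a direction opposite to that in EC-like cells, with Bmp6 at 73.8 and 72.9 CPM. The mixtures differed between the libraries. The largest in EC-iCD45KO, mixed with macrophage markers, held 993, 779 and 240 cells, against 117, 155 and 10 in WT. One mixed with B cell markers held 269 WT and 12 EC-iCD45KO cells. With the mixed cells kept among EC-like cells the log2 ratio of Bmp4 was -1.24 and that of Id1 was 0.08.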
